A study of Saccharomyces cerevisiae with 15 samples.

Results

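The RNA of 9 general stress genes of budding yeast, Saccharomyces cerevisiae, was followed across 5 groups of arrays. The genes were HSP12, DDR2, TMA10, GRE1, SIP18, SPI1, RTN2, XBP1 and HOR7, taken by name as targets of the transcription factors Msn2 and Msn4, and each had 1 probe set among the 5588 yeast genes measured. The 9 genes were chosen with earlier results of these data known. All 9 were called present on 15 of 15 arrays. The name "small stress proteins" describes most of them but not all, because XBP1 encodes a transcriptional repressor and RTN2 a reticulon-like protein of the endoplasmic reticulum.

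The study measured total RNA on Affymetrix yeast arrays, 3 arrays in each group. One group was untreated wild-type yeast at 0 min. The other groups had received arsenate (AsV) for 60 min, and were wild type, yap1, yap8 and the double mutant y1y8. The dose of 2 mM stands in the text on the design of the series, which speaks of growth with arsenate up to exponential phase, so it may not be the dose of the 60 min exposure. The same text mentions plasmids in double mutant cells and an array type other than the one to which the probe set names belong, and the labels assign no plasmid to any group. Strain background and the way each gene was removed are not given in the sources used here. No untreated group at 60 min and no untreated mutant was among the samples, so arsenate cannot be told apart from the passage of time, and the mutants were compared under arsenate only.

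Msn2 and Msn4 are zinc-finger activators that growing yeast keeps out of the nucleus through protein kinase A. When cells are stressed or run short of glucose, the factors enter the nucleus and bind the short stress response element in many promoters. Their targets serve protein folding, trehalose and glycogen metabolism, the defence against oxidants and the cell wall. Yap1 is an activator of the response to oxidants, and Yap8 (gene ARR1) an activator of arsenic detoxification genes. Arsenate, the pentavalent form of arsenic, enters yeast through phosphate transporters.

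Before normalization the median signal of yeast probe sets lay between 548.2 and 933.8 on the 15 arrays. Both genes named by the mutants' labels were low in those mutants. YAP1 read between 502 and 660 in yap1 and y1y8 and between 2911 and 3779 in the other treated groups, and ARR1 read between 2 and 6 in yap8 and y1y8 and at least 1876 elsewhere. The YAP1 probe set was nevertheless called present on 15 of 15 arrays, that of ARR1 on 9. All signals given here are quantile-normalized linear intensities, changes are log2 differences of group means ± SE from limma with n = 3 arrays a group, and adjusted p-values are over all 5588 genes. A gene is said to have risen or fallen where the adjusted p was under 0.05. The changes are relative to the other genes on the array, and in a bulk sample fewer cells of a kind and less RNA per cell cannot be told apart. The sources do not say that the 3 arrays of a group came from different cultures, so p-values measure the spread between arrays.

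Arrays of 3 groups, 1 in each, differed from their replicates in several of the 9 genes. In untreated wild type, the log2 difference from replicate 2 had an SD over genes of 0.374 and 0.351, against 0.228 between replicates 1 and 3. On that array RTN2 was 3.21-fold, TMA10 2.74-fold, SPI1 2.03-fold, XBP1 1.92-fold and DDR2 1.82-fold above the mean of the other untreated arrays. The other Msn2/Msn4 targets, 54 genes in a list, had a median deviation of 0.67 there, against a median near 0 over all genes. HSP12, HOR7 and GRE1 deviated by 0.17, -0.06 and 0.29.

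The other 2 arrays were yap1 replicate 1 and y1y8 replicate 3. Over all genes y1y8 replicate 3 differed from its replicates with an SD of 0.298 and 0.293, against 0.193 between the other arrays, but yap1 replicate 1 with 0.293 and 0.241, against 0.221, so this array stood apart in a few genes more than over all of them. SIP18 had the largest upward deviation of all 5588 genes on each of them, 4.66-fold and 7.18-fold above the mean of the group's other arrays. RTN2 was at 1.90-fold and 1.71-fold (ranks 20 and 62 among all genes) and GRE1 at 1.52-fold and 1.76-fold (ranks 69 and 56). TMA10, SPI1, HSP12 and HOR7 lay within 0.09 of the mean of the group's other arrays on the log2 scale. What set these arrays apart was not tested. Results are given below with and without them where the value turns on them.

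**Figure D1:**
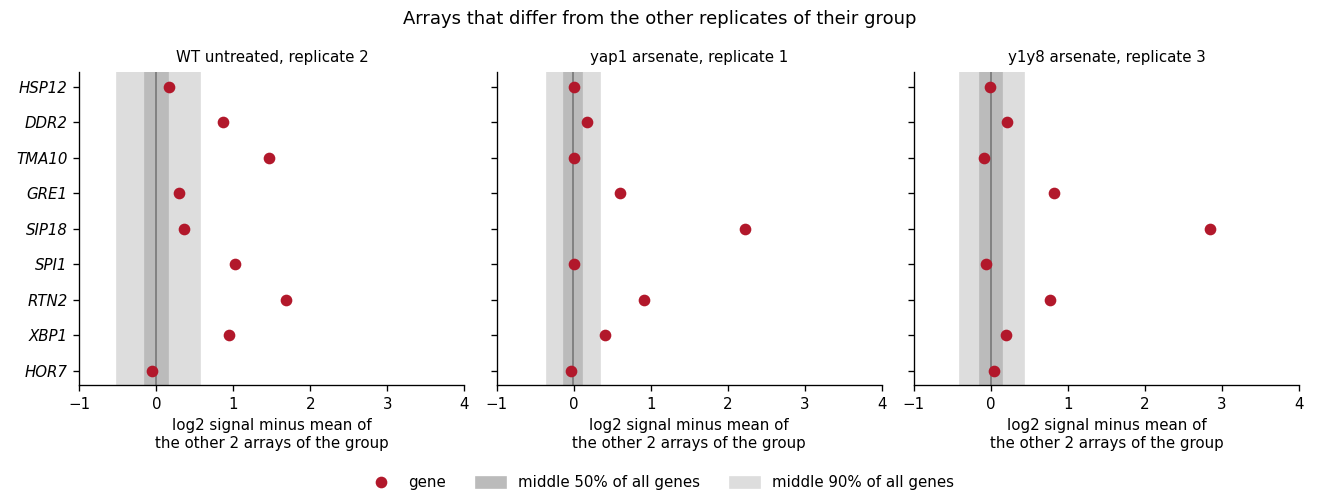
Deviation of each gene on the 3 arrays that stood apart, as the log2 signal minus the mean of the other 2 arrays of the group. Shaded bands hold the middle 50% and 90% of all 5588 genes. RTN2, TMA10, SPI1, XBP1 and DDR2 lie above the bands on the untreated array, and SIP18 at 2.22 and 2.84 on the treated arrays.

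The first comparison asked how these genes responded to arsenate in wild type. Of the 9 genes, 8 rose and none fell, and the size ran from 1.23-fold for HSP12 to 13.0-fold for TMA10. Their median change was 1.14, against 0.03 over all genes. The arsenate response was very broad, and 81.2% of all genes passed the test in this comparison, 41.9% upward, so a rise alone does not set a gene apart here. Signals after arsenate lay wholly above the untreated ones for 8 of the 9, all but XBP1, against 42.3% of all genes. Without untreated replicate 2 the same number, 8, rose. Because the 9 genes were chosen with earlier results of these data known, these shares are no independent evidence.

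**Figure D2:**
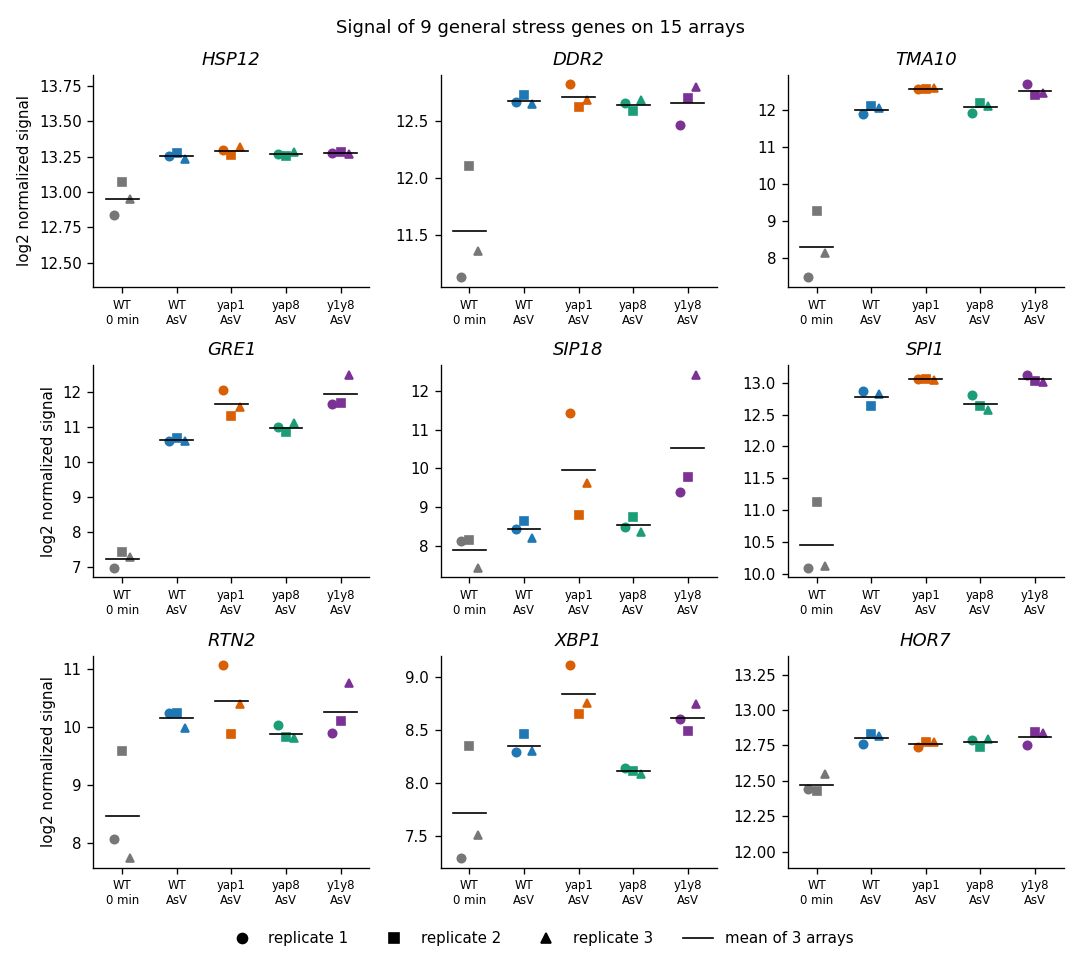
Log2 normalized signal of the 9 genes on each of the 15 arrays, with 1 symbol per replicate number and a line at the mean of the 3 arrays. Each panel has its own vertical scale. TMA10, GRE1 and SPI1 show the widest gaps between untreated and treated arrays, and SIP18 has a single high array in yap1 and in y1y8.

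The hydrophilins are very hydrophilic proteins that protect others when water is scarce. HSP12, a small membrane-associated hydrophilin, read 7318, 8592 and 7921 on the untreated arrays and 9764, 9924 and 9619 after arsenate. The groups did not overlap, and the rise was 0.30 ± 0.06 (adjusted p = 0.000329), or 1.23-fold. Its probe set was close to the top of the scale, at 67.3% to 84.4% of the highest deposited signal on the untreated arrays and 76.5% to 90.9% on the treated ones. With each array centred on its median in place of quantile normalization the change was -0.09 (adjusted p = 0.538), and the deposited signals of the 2 groups overlapped. The direction for HSP12 therefore depended on the scaling, and whether its signal was proportional to RNA at that height was not tested.

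GRE1, a hydrophilin gene induced by osmotic and oxidative stress, read 125, 170 and 156 without treatment. After arsenate it read 1557, 1643 and 1544. Every treated array was above every untreated one, the rise was 3.41 ± 0.21 (adjusted p = 5.06e-09), or 10.6-fold, and it was 3.50 without untreated replicate 2. The authors' deposited tables hold only 5 of the 9 genes for arsenate, 2 for yap1 and 0 for yap8, so no such fold can be given for the rest. For GRE1 the authors' deposited table gives means of 672.71 and 3526.68 and a fold of 5.24 with bounds of 3.72 and 8.74, so the 10.6-fold found here lies outside them. The deposited GRE1 signals were 94, 188 and 99 untreated and 1811, 1537 and 1373 after arsenate, so the authors' means rest on other intensities. Why these intensities differ was not tested. SIP18, the paralogue of GRE1 and a phospholipid-binding hydrophilin, read 281, 283 and 173 untreated and 344, 400 and 295 after arsenate. The arrays of SIP18 did not overlap either, but its change of 0.52 ± 0.70 missed the threshold (adjusted p = 0.502), with a 95% interval from -1.0 to 2.04. The error is wide because the fit shares 1 spread over all groups, the 2 high SIP18 arrays of the mutants included. With only the wild-type arrays in the fit the same change had an adjusted p of 0.0597. The hydrophilin list had 2 further genes, of which STF2 rose by 1.03 ± 0.18 (adjusted p = 0.000106) and NOP6 fell by 1.16 on the log2 scale (adjusted p = 5.95e-06).

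TMA10, which encodes a small protein that associates with ribosomes, had the largest change of the 9. It read 180, 622 and 286 on the untreated arrays and 3791, 4378 and 4228 after arsenate. The untreated arrays differed by up to 3.46-fold among themselves, yet the lowest treated array was well above the highest of them. The rise was 3.70 ± 0.30 (adjusted p = 6.96e-08), or 13.0-fold, and 18.2-fold without untreated replicate 2. STF2, the paralogue of TMA10 and a factor that stabilizes the inhibited mitochondrial ATP synthase, rose 2.04-fold. In the authors' deposited table TMA10 has a fold of 12.54 for the same comparison, with bounds of 7.54 and 36.99.

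SPI1 encodes a glycosylphosphatidylinositol-anchored cell wall protein made under stress and in stationary phase. Its signal was 1097, 2247 and 1122 untreated and 7468, 6331 and 7243 after arsenate. No array of one group reached the other, and the rise was 2.32 ± 0.20 (adjusted p = 1.37e-07), or 4.98-fold. Without untreated replicate 2 it was 6.31-fold. In the authors' deposited table the fold of SPI1 is 4.81, with bounds of 3.24 and 9.17. SED1, the paralogue of SPI1 and an abundant structural wall protein of growing cells, differed by 0.08 ± 0.05 (adjusted p = 0.136).

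DDR2 and HOR7 are paralogues that encode very small hydrophobic proteins, DDR2 induced by DNA damage and many other stresses and HOR7 first described under high osmolarity. DDR2 read 2247, 4420 and 2634 untreated and 6472, 6766 and 6410 after arsenate. The treated arrays were all higher, and the rise was 1.14 ± 0.18 (adjusted p = 5.27e-05), or 2.21-fold, and 2.69-fold without untreated replicate 2. The fold of DDR2 in the authors' deposited table is 2.2, with bounds of 1.59 and 3.54. HOR7 read 5554, 5514 and 5979 untreated and 6951, 7299 and 7209 after arsenate. The HOR7 arrays did not overlap, and its rise was 0.33 ± 0.05 (adjusted p = 6.17e-05), or 1.26-fold. As for HSP12, median centring turned the HOR7 change to -0.17 (adjusted p = 0.245), and its probe set lay between 53.1% and 64.4% of the highest deposited signal of each array.

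RTN2 encodes a reticulon-like protein that curves membranes of the endoplasmic reticulum. It read 267, 768 and 213 untreated and 1206, 1215 and 1006 after arsenate. The untreated arrays spanned 3.60-fold, with replicate 2 far above the others but below all treated arrays. The rise was 1.69 ± 0.40 (adjusted p = 0.00158), or 3.23-fold, and 4.76-fold without that array. The fold of RTN2 in the authors' deposited table is 2.69, with bounds of 1.5 and 11.12. RTN1, its paralogue and the main reticulon of growing cells, moved the other way, from 4293, 3860 and 3898 to 1546, 1630 and 1495. The fall of RTN1 was -1.37 ± 0.07 (adjusted p = 1.13e-09), or 2.58-fold.

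XBP1 encodes a repressor of cell cycle and other growth genes that stress and quiescence induce. It read 157, 325 and 183 untreated and 313, 352 and 315 after arsenate. Untreated replicate 2 fell inside the range of the treated arrays, and the others were well below it. The rise of 0.63 ± 0.21 (adjusted p = 0.0117), or 1.55-fold, depended on single arrays. It became 0.95 (adjusted p = 1.3e-05) without untreated replicate 2, but missed the threshold without replicate 1 (0.42, adjusted p = 0.0661) or replicate 3 (0.53, adjusted p = 0.0504). It also missed it with only the wild-type arrays in the fit (adjusted p = 0.0579).

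Set side by side, the arsenate changes of the paralogues were 3.41 for GRE1 and 0.52 for SIP18, 3.70 for TMA10 and 1.03 for STF2, 2.32 for SPI1 and 0.08 for SED1, and 1.14 for DDR2 and 0.33 for HOR7. RTN2 and RTN1 moved in opposite directions. The difference within a pair was not tested, and signals of different probe sets were not set against each other.

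**Figure D3:**
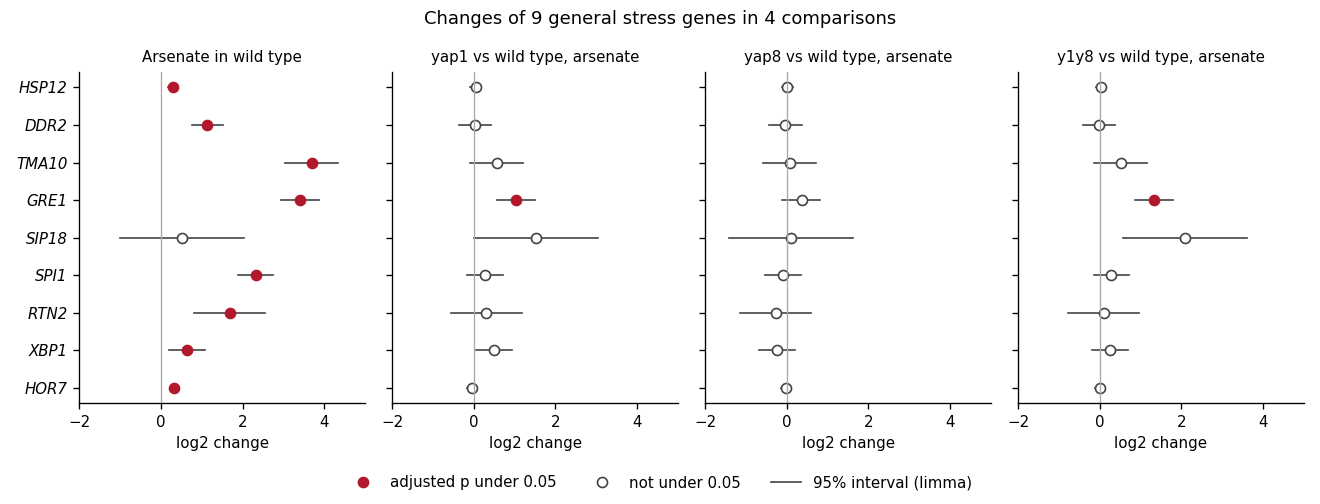
Log2 change of the 9 genes in 4 comparisons, with 95% intervals from limma and filled points where the adjusted p was under 0.05. In arsenate 8 genes are filled. In yap1 and in y1y8 against treated wild type GRE1 alone is filled, and in yap8 none.

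The next comparisons asked whether loss of a regulator altered these genes under arsenate. In yap1, GRE1 alone rose against treated wild type, and 19.0% of all genes passed the test in that comparison, 9.61% upward. The median change of the 9 genes was 0.30, against 0.05 over all genes. GRE1 read 4247, 2561 and 3065 in yap1, each above the 1557, 1643 and 1544 of treated wild type. The rise was 1.03 ± 0.21 (adjusted p = 0.00437), or 2.04-fold, and 0.83 (adjusted p = 0.022) without yap1 replicate 1. In the authors' deposited table the GRE1 fold for yap1 is 1.73, with bounds of 1.41 and 2.06.

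For 5 genes all yap1 arrays lay above all treated wild-type arrays, against 25.1% of all genes. Besides GRE1 these were TMA10, SPI1, XBP1 and SIP18. TMA10 read 6055, 6024 and 6112 in yap1, within 1.01-fold of one another, and the difference from wild type was 0.56 ± 0.30 (adjusted p = 0.228). SPI1 read 8520, 8495 and 8465, a difference of 0.28 ± 0.20 (adjusted p = 0.373). XBP1 read 551, 401 and 432, a difference of 0.49 ± 0.21 (adjusted p = 0.122). None of the 3 passed with the spread shared over all 15 arrays. With only yap1 and treated wild type in the fit, which leaves out the scattered untreated arrays, TMA10 (adjusted p = 0.0021), SPI1 (adjusted p = 0.0414) and XBP1 (adjusted p = 0.034) passed with GRE1, so that 4 genes did. The share of all genes that passed in this smaller fit is not given here, so the count has no background beside it. In the authors' deposited table TMA10 has a fold of 1.28 in yap1, with bounds of 1.22 and 1.34. The difference of 0.56 found here is 1.47-fold, which lies outside those bounds. The reason was not tested.

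SIP18 was the most uneven of the 9 in the mutants. It read 2765, 446 and 789 in yap1, against 344, 400 and 295 in treated wild type. Replicate 1 was far above the others, and replicate 2 was only just above wild type. The difference was 1.53 ± 0.70 (adjusted p = 0.156), and 0.79 (adjusted p = 0.485) without replicate 1. RTN2 was uneven on the same array, reading 2142, 944 and 1354 in yap1, and its difference from wild type of 0.30 ± 0.40 became -0.01 without replicate 1.

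In yap8 none of the 9 genes passed limma's test against treated wild type and none had an unadjusted p under 0.05, in a comparison where 0.125% of all genes passed. The differences ran from -0.27 for RTN2 to 0.36 for GRE1. GRE1 read 2033, 1852 and 2198 in yap8, all above treated wild type, against 8.38% of all genes with such a gap. Its difference of 0.36 ± 0.21 (adjusted p = 0.885) had a 95% interval from -0.11 to 0.82. XBP1 read 282, 277 and 272, all below the 313, 352 and 315 of treated wild type, a gap that 7.77% of all genes had in this direction, and its difference was -0.24 ± 0.21 (adjusted p = 0.97). TMA10 read 3889, 4699 and 4424 and SPI1 7136, 6376 and 6112 in yap8, and both overlapped wild type.

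The double mutant y1y8 was set against the same treated wild-type arrays as yap1. GRE1 alone of the 9 rose, in a comparison where 20.0% of all genes passed the test and 10.1% passed it upward. It read 3248, 3307 and 5771, all above wild type, and the rise was 1.32 ± 0.21 (adjusted p = 0.000611), or 2.50-fold. Without y1y8 replicate 3, the array with the highest value, the rise was 1.05 (adjusted p = 0.00123). TMA10 at 6588, 5459 and 5625, SPI1 at 8919, 8331 and 8297 and XBP1 at 388, 359 and 429 were again above every treated wild-type array. With SIP18 and GRE1 that made 5 genes, against 25.2% of all genes, but the differences of TMA10 (0.51), SPI1 (0.28) and XBP1 (0.26) did not pass. The median change of the 9 genes was 0.26, against 0.05 over all genes.

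SIP18 read 666, 872 and 5471 in y1y8. All 3 arrays were above wild type, and replicate 3 was 8.22-fold above the lowest. The difference of 2.10 ± 0.70 narrowly missed the threshold (adjusted p = 0.0519). It passed with 16 added before log2 (adjusted p = 0.0453), with limma's trend and robust options (adjusted p = 0.0496) and without y1y8 replicate 1 (adjusted p = 0.0258). Without replicate 3 the difference was 1.15 (adjusted p = 0.164). RTN2 read 950, 1094 and 1739, with the same array on top, and overlapped wild type.

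HSP12, DDR2 and HOR7 were the most even genes across the treated groups after quantile normalization. HSP12 read 10063, 9817 and 10214 in yap1, 9870, 9764 and 9977 in yap8 and 9924, 9977 and 9870 in y1y8, and its differences from treated wild type ran from 0.01 to 0.04. DDR2 read 7218, 6306 and 6568 in yap1, 6451, 6145 and 6559 in yap8 and 5663, 6645 and 7114 in y1y8, with differences from -0.04 to 0.03. HOR7 read 6842, 7010 and 7010 in yap1, 7068, 6854 and 7126 in yap8 and 6898, 7342 and 7318 in y1y8, with differences from -0.04 to 0.01. All 3 genes overlapped treated wild type in every mutant. Their probe sets were bright on the treated arrays. They lay at 76.5% to 90.9% (HSP12), 46.8% to 60.1% (DDR2) and 54.3% to 64.4% (HOR7) of the highest deposited signal. The deposited HSP12 signals ran from 8988 to 10221 on these arrays. Whether a difference in RNA would show at that height was not tested, so the small differences do not show unchanged RNA. The 95% interval of the difference in yap8 was -0.11 to 0.14 for HSP12, -0.43 to 0.36 for DDR2 and -0.14 to 0.09 for HOR7. RTN2 read 1045, 904 and 893 in yap8, which overlapped wild type, and its difference of -0.27 ± 0.40 had an interval from -1.14 to 0.60.

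The single mutants were also set against each other and against the double mutant. GRE1 (0.67, adjusted p = 0.0405) and XBP1 (0.72, adjusted p = 0.0237) were higher in yap1 than in yap8, where 21.8% of all genes passed, but both calls were lost without yap1 replicate 1 and without any 1 of the yap8 arrays. GRE1 was higher in y1y8 than in yap8 by 0.97 (adjusted p = 0.006), where 19.2% of all genes passed. Between y1y8 and yap1 none of the 9 genes passed limma's test and none had an unadjusted p under 0.05, with 0.0895% of all genes passing. The same was true of the amount by which y1y8 departed from both single losses added together (0.0537% of all genes), which ran from -0.11 to 0.46 over the 9 genes. For SIP18 that departure had a 95% interval from -1.68 to 2.61, so a sizeable departure was not detectable with these arrays.

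Because Yap1 was missing from 2 groups, a contrast of the 6 treated arrays without it and the 6 with it was added after the data had been seen. It uses the same arrays as the comparisons above and is no separate evidence. In it 3 of the 9 genes rose, GRE1, SIP18 and XBP1, in a contrast where 33.9% of all genes passed and 20.2% passed upward. GRE1 was higher by 1.0 ± 0.15 (adjusted p = 0.000217), SIP18 by 1.76 ± 0.50 (adjusted p = 0.0152) and XBP1 by 0.49 ± 0.15 (adjusted p = 0.0191). TMA10 (0.50, adjusted p = 0.0898) and SPI1 (0.33, adjusted p = 0.0915) missed the threshold with all arrays in the fit, and passed with the 12 treated arrays alone (adjusted p = 0.000127 and 0.000701). For these 5 genes every one of the 6 arrays without Yap1 was above every one of the 6 arrays with it, as for 9.47% of all genes. The other 4 genes, HSP12, DDR2, HOR7 and RTN2, overlapped, and the first 3 differed by at most 0.02.

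The 2 mutant arrays that stood apart weighed on the sizes. With both left out, GRE1 was higher by 0.76 ± 0.09 (adjusted p = 6.32e-05) and SIP18 by 0.92 ± 0.19 (adjusted p = 0.00373). XBP1 then missed the threshold (0.39 ± 0.16, adjusted p = 0.0859). SIP18 thus passed with and without its highest arrays, but its change was 1.76 in one case and 0.92 in the other. The corresponding added contrast for Yap8 gave no gene of the 9 past limma's test and none at an unadjusted p under 0.05, with 0.215% of all genes passing. The nearest was GRE1, at 0.33 (adjusted p = 0.558).

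The groups can be put in order for each gene. For GRE1 the mean log2 signal went up from untreated wild type through treated wild type, yap8 and yap1 to y1y8, and the neighbours in that order that did not pass were yap8 and wild type (adjusted p = 0.885) and y1y8 and yap1 (adjusted p = 0.893). For SIP18 the order was the same, and no pair of neighbours passed. For TMA10 and SPI1 untreated wild type was lowest and no difference among the treated groups passed. For HSP12, DDR2 and HOR7 the 4 treated groups lay within 0.07 of one another on the log2 scale. For XBP1 the order was untreated wild type, yap8, treated wild type, y1y8 and yap1, and among the treated groups only the outermost, yap1 and yap8, differed in the test (adjusted p = 0.0237). For RTN2 the order was the same, and no difference among the treated groups passed. Untreated wild type was not set against the mutants.

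Over all 15 arrays the 9 genes followed one another, with Pearson's r between 0.43 and 0.99 for the 36 pairs and a median of 0.88. These points share the difference between untreated and treated arrays. Over the 12 treated arrays alone r ran from -0.20 to 0.92, with a median of 0.48, and 2 of 36 pairs were above 0.8. The paralogues GRE1 and SIP18 had r = 0.68 over 15 arrays and 0.92 over the treated 12, which share the 2 arrays that stood apart. The paralogues DDR2 and HOR7 had 0.86 and 0.39.

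The RNA of the regulators was examined too. MSN2 differed by -0.16 ± 0.14 (adjusted p = 0.293) and MSN4 by -0.28 ± 0.12 (adjusted p = 0.0513) in arsenate, so neither passed. MSN4 read 608, 601 and 632 in treated wild type, 739, 732 and 812 in yap1 and 756, 805 and 747 in y1y8. It was higher without Yap1 by 0.37 ± 0.09 (adjusted p = 0.0055) in the added contrast. In neither mutant alone did MSN4 pass against treated wild type, at 0.31 in yap1 (adjusted p = 0.104) and 0.33 in y1y8 (adjusted p = 0.0806). A list of 27 Msn2/Msn4 pathway regulators, of which 26 were measured, includes MSN2 and MSN4 themselves and other regulators such as HOT1 and TUP1. In arsenate 8 of the 26 fell (30.8%) and 10 rose (38.5%), where 81.2% of all genes passed the test, 41.9% upward. The share of the 26 genes that rose was therefore near the background. Among them were RAS1 (-2.39), an activator of adenylate cyclase, TPK3 (-2.31) and TPK2 (1.45), which encode catalytic subunits of protein kinase A, PDE1 (1.95), a phosphodiesterase for cyclic AMP, and YAK1 (0.96), a kinase opposed to protein kinase A. CYC8 (SSN6), a subunit of the general corepressor with Tup1, fell by 1.63. In the added contrast for Yap1, 6 of the 26 rose (23.1%, against 20.2% of all genes) and 3 fell (11.5%), where 33.9% of all genes passed. Without yap1 replicate 1, 4 rose, and without y1y8 replicate 3, 7 rose. WHI2, which acts in activation of Msn2, was at -0.67 and RIM15, a kinase that promotes stress gene expression on entry into stationary phase, at -0.46, both with adjusted p under the threshold.

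The 9 genes were set beside a list of 54 other Msn2/Msn4 targets. This list too was chosen with earlier results of these data known, so its shares are no independent evidence. In arsenate 43 of the 54 rose (79.6%, against 41.9% of all genes) and 5 fell (9.26%), where 81.2% of all genes passed. The median change of the 54 was 1.02. Without untreated replicate 2, 49 rose and 3 fell. MOH1 (3.05), the chaperone gene SSA4 (2.78) and the aldehyde dehydrogenase gene ALD3 (2.50) rose most, and GAC1 (-1.35), a subunit of the phosphatase that controls glycogen synthase, fell most. In this fit the changes of TMA10 and GRE1 were above those of all 54. The authors' deposited table gives a smaller fold for GRE1, 5.24. Folds of the 54 from that source were not set beside it, so the place of GRE1 there was not examined. In yap1 6 of the 54 rose (11.1%, against 9.61% of all genes) and 3 fell (5.56%), where 19.0% of all genes passed. Without yap1 replicate 1, 4 rose (7.41%) and 3 fell. In yap8 none of the 54 passed limma's test and none had an unadjusted p under 0.05, in a comparison where only 0.125% of all genes passed. In y1y8 6 rose (11.1%, against 10.1% of all genes) and 3 fell (5.56%), where 20.0% of all genes passed. Without y1y8 replicate 3, 2 rose and 3 fell. In the added contrast for Yap1 15 rose (27.8%, against 20.2% of all genes) and 3 fell (5.56%), where 33.9% of all genes passed. Without yap1 replicate 1, and likewise without y1y8 replicate 3, 12 rose (22.2%) and 3 fell. PAI3, a proteinase A inhibitor (1.32), and the glycogen phosphorylase gene GPH1 (0.76) rose most, and the 3 that fell were GND2 (-1.25), the peroxiredoxin gene PRX1 (-1.02) and the superoxide dismutase gene SOD2 (-0.66).

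**Figure D4:**
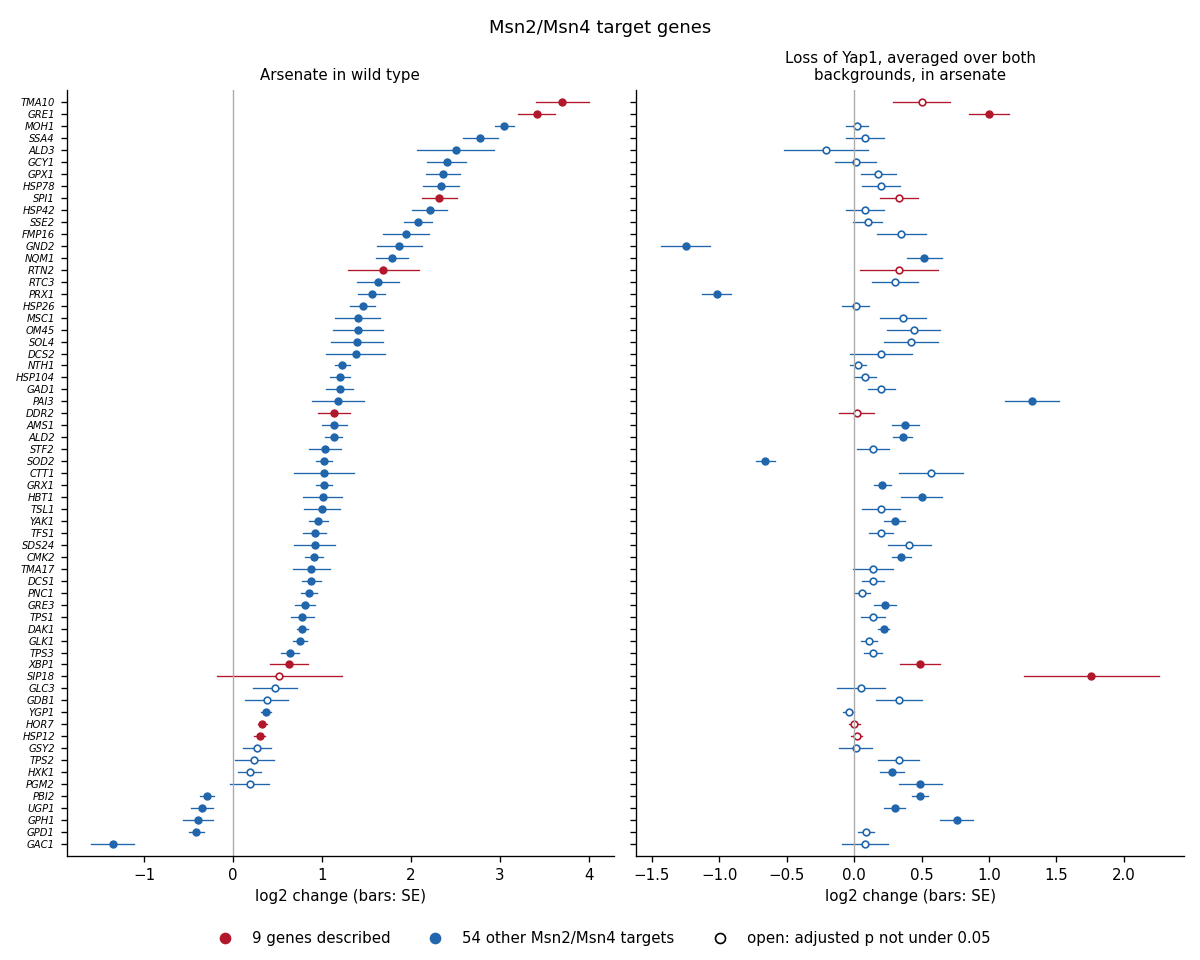
Log2 change ± SE of the 9 genes (red) and 54 other Msn2/Msn4 targets (blue), ordered by the arsenate change, in arsenate and in the added contrast for loss of Yap1. Open points did not pass the test. TMA10 and GRE1 head the left panel, and SIP18, PAI3 and GRE1 lie farthest right in the right panel.

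Some of the 9 are also known from osmotic stress, where the kinase Hog1 acts. Of 9 measured Hog1-dependent genes, 7 rose in arsenate (77.8%, against 41.9% of all genes), led by ALD3 (2.50), GCY1 (2.40) and GRE2 (2.27). The glycerol-3-phosphate dehydrogenase gene GPD1 was the 1 that fell, by 0.41. Without untreated replicate 2, 6 rose (66.7%) and 1 fell. The genes GPD1, CTT1, ALD3, PAI3 and GCY1 are also among the 54 other Msn2/Msn4 targets, so the lists overlap and are no separate evidence. The list of Hog1-dependent genes was likewise chosen with earlier results of these data known. In yap1 GRE2, a methylglyoxal reductase gene, was at -2.09 against treated wild type (adjusted p = 7.14e-06), while PAI3 (1.27, adjusted p = 0.00751) and the glycerol phosphatase gene GPP2 (0.33, adjusted p = 0.00317) rose.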

How the data were processed

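The deposited file of each of the 15 arrays held a linear intensity (Signal) and a detection call for 10928 probe sets. Per the submitters' processing notes Partek was used, in a version and with a probe summary not given in the sources used here. A deposited workbook held the authors' own comparisons with signed linear folds, treated as a score, and 18 call columns of it were not used. Probe sets were named from the platform annotation and the workbook, which gave 5638 with 1 yeast gene and, taking the brightest for a gene, 5588 genes. Quantile normalization was applied to the deposited intensities of all probe sets together, followed by a floor of 1 and log2. Changes were tested two-sided with limma 3.58.1 (lmFit and eBayes, R 4.3.3) in a group-means model of all 15 arrays, with Benjamini-Hochberg adjustment over 5588 genes and a threshold of 0.05, in 8 comparisons and 2 added after the data had been seen. The script was tested on simulated data with 200 changed genes. For arrays, their number limits the precision.

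The 9 genes and all gene lists were chosen with earlier results of these data known. Genes named besides the 9 are their paralogues, the regulators MSN2 and MSN4, YAP1 and ARR1, from each list up to the 3 largest called rises and falls in a comparison, and the genes whose log2 signals correlate best with the 9. Genes named for the 2 added contrasts follow the same rule, and FMP45's deviations and the neighbours were added after values were seen. The alternatives were median centring, 16 added before log2, dim genes left out, the mean of probe sets, limma's trend and robust options, a test against a 1.2-fold change, a replicate block, only the compared groups in the fit, and each array left out in turn.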

Additional observations from a re-analysis of the deposited data

How the results depend on the processing

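Of 693 alternative values for changes of single genes among the 9, 652 kept their direction and their side of the threshold, 9 passed only under the alternative, 9 no longer passed and 23 changed sign. The count of the 9 genes that rose in arsenate, 8, was 5 in the test against 1.2-fold, which asks for a larger change. It was 6 with median centring and 7 with only the wild-type arrays in the fit. With only the compared groups in the fit 4 genes in place of 1 passed in yap1, 2 in place of 1 in y1y8, 4 in place of 2 in yap1 against yap8, 4 in place of 1 in y1y8 against yap8 and 5 in place of 3 in the added contrast for Yap1. The shares of all genes that passed in these smaller fits are not given here, so these counts have no background beside them. In y1y8 2 genes passed with 16 added before log2 and with the trend and robust options. The 1.2-fold test left 0 genes in yap1 against yap8 and 1 in the added contrast. Leaving out 1 array at a time gave 7 to 8 genes in arsenate, 1 in yap1, 1 to 2 in y1y8, 0 to 2 in yap1 against yap8 and 1 to 2 in y1y8 against yap8.

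Median centring changed signs to -0.09 for HSP12 and -0.17 for HOR7 in arsenate, -0.05 for HSP12 in yap8, -0.02 for HSP12 and -0.05 for HOR7 in y1y8, and 0.00 for HOR7 in the added contrast, where DDR2 was -0.04 without both arrays that stood apart. Signs also changed when 1 array was left out for DDR2 (-0.02 to 0.07) and RTN2 (-0.01 to 0.58) in yap1, SIP18 in yap8 (-0.00 to 0.22), DDR2 (-0.09 to 0.07), RTN2 (-0.16 to 0.28) and HOR7 (-0.01 to 0.04) in y1y8, and DDR2 (-0.01 to 0.07) and HOR7 (-0.01 to 0.01) in the added contrast. Apart from HSP12 and HOR7 in arsenate, no sign change touched a gene that had passed. The cause was not tested. Over all genes the 1.2-fold test left 295 of 1059 calls in yap1, 342 of 1115 in y1y8, 355 of 1218 in yap1 against yap8, 331 of 1072 in y1y8 against yap8, 416 of 1897 and 6 of 12 in the added contrasts, and y1y8 against yap1 had 9 calls in place of 5 without yap1 replicate 2.

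Equal replicate numbers did not pair the arrays. Their deviations from the group means correlated between -0.329 and 0.408, and above 0.1 in 6 of 30 pairs. With the replicate number as a block the counts for the 9 genes were 8 in arsenate, 1 in yap1, 0 in yap8, 1 in y1y8 and 3 in the added contrast, as without it.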

Other observations

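Over 15 arrays the mean standardized signal of the 9 genes correlated best with FMP16, NQM1 and TFS1 (Pearson's r = 0.992 each), DCS1 (0.990) and ATG33 (0.988). These points share the difference between untreated and treated arrays, and over the 12 treated arrays r was 0.969, 0.915, 0.942, 0.906 and 0.933. Of the 5 genes all but ATG33 are in the list of other Msn2/Msn4 targets, and each rose in arsenate, by 0.88 (DCS1) to 1.94 (FMP16). For single genes the closest were GLK1, a glucokinase gene, for both TMA10 (0.997) and SPI1 (0.996), CSR2 for GRE1 (0.995), TMA17 for RTN2 (0.984) and IGD1 for XBP1 (0.977). HSP12 and PNC1 had r = 0.989 over 15 arrays but 0.613 over the treated 12, DDR2 and YPF1 0.987 and 0.553, and HOR7 and SMY1 0.977 and 0.573, so these 3 likenesses rested mainly on the contrast of untreated with treated arrays.

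SIP18 had a different companion. FMP45, a gene for a membrane protein of the Sur7 family, correlated with SIP18 at 0.911 over 15 arrays and at 0.975 over the treated 12. FMP45 was picked by this correlation, on which the 2 high SIP18 arrays weigh. Its deviations on them, 1.27 in yap1 replicate 1 and 1.47 in y1y8 replicate 3, are therefore no separate evidence. In untreated replicate 2 FMP45 deviated by 1.58, where SIP18 deviated by 0.36. The mean signal of FMP45 was 439 in treated wild type, 420 in yap8, 901 in yap1 and 1012 in y1y8.

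In the gene table of assembly R64, which is used here only for gene order, 16 of the 18 protein-coding genes on either side of the 9 were measured. In arsenate 7 of the 16 rose and 4 fell, with a median of 0.17. In that comparison 81.2% of all genes passed and 41.9% rose, so the share of neighbours that rose was near the background. The largest changes were 3.35 for GTO3, beside HOR7, and 3.34 for YIL102C, beside XBP1, both larger than the change of the neighbouring stress gene. Both neighbours of GRE1 rose, MMT2 by 1.2 and FMP40 by 1.86, as did PAI3 beside SIP18, by 1.18.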
